A study of Mus musculus with 15 samples.

Results

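miR-223 was followed through mouse liver grafts, as the readings that carried the name mmu-miR-223 on each of 15 single-color Agilent mouse miRNA arrays. It is 1 of the 567 mouse miRNAs on the array, and it was detected on 15 of 15 arrays. The arrays fell into 5 groups of 3 grafts: syngeneic grafts taken on day 5 after transplantation, and liver allografts taken on day 5, day 8, day 14 and day 100. In the allografts, livers of male B10.BR mice (H2-Kk) were transplanted into B10.D2 recipients (H2-Kd), and the labels name no drug or other agent for any group. The sample labels repeat this allogeneic pair for the 3 syngeneic arrays, which were grouped as syngeneic from their titles and descriptions. The strain of the syngeneic grafts is therefore not known here. The only syngeneic grafts were those of day 5, so a difference between a later allograft and the syngeneic grafts holds the day as well as the strain pair. The arrays lay on 2 slides. Replicates 1 and 2 of the syngeneic grafts and all allografts of day 8 and day 14 were on slide 1, and syngeneic replicate 3 and all allografts of day 5 and day 100 were on slide 2. Replicate 1 of day 100 stood apart from the other arrays. The median signal of its miRNA spots was -16.4, against -0.151 to 1.33 elsewhere, and the additive error that the software estimated for it was 13.1, against 2.67 to 3.66 elsewhere. It had the fewest detected mouse miRNAs, 60 against 71 to 115.

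miR-223 is made mainly by cells of the myeloid lineage. Its gene is switched on as progenitors become granulocytes, neutrophils hold it at a high level, and monocytes, macrophages and platelets hold it as well. In granulocytes it limits the growth of progenitors and the activation of mature cells, partly through the transcription factor Mef2c, and in macrophages it represses the inflammasome protein Nlrp3. Hepatocytes make little of it, and in an injured liver it is used as a sign of neutrophils and macrophages. In RNA from a whole graft, fewer cells of a type and less RNA per cell cannot be told apart.

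The mature sequence of miR-223 is shown first because its seed, which pairs with target mRNAs, was shared with no other mature mouse miRNA in the RefSeq table used here. The array names no arm for miR-223, and its readings were taken to be those of the 3p arm. The 5p arm of the same hairpin is shown beside it. Both are from RefSeq for GRCm38.p6, 5′ to 3′, with the seed (bases 2 to 8) in capitals.

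mmu-miR-223-3p: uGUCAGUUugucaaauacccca

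mmu-miR-223-5p: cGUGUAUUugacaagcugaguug

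The 3p arm is 22 bases long and lies at chrX:96242884-96242905 on the + strand. It is bases 68 to 89 of the 110 base Mir223 hairpin (chrX:96242817-96242926), which lies inside F630028O10Rik, an lncRNA gene at chrX:96239926-96243642.

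Every array read miR-223 with 2 probes and 10 spots for each probe, 300 spots in all. Of these, 274 spots were well above background, 9 were outliers and were left out, and no spot was saturated. On 12 arrays all 20 spots were well above background. The exceptions were syngeneic replicate 1 with 10 spots, syngeneic replicate 2 with 14 spots and day 100 replicate 1 with 10 spots, and on these arrays every spot not well above background belonged to probe A_54_P2629. Thus the level in the syngeneic grafts rests largely on the other probe, A_54_P2630, which was well above background in 10 of 10 spots on every array.

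On probe A_54_P2630, the mean spot intensity before scaling was 49.1, 48.6 and 116 in the syngeneic grafts. Among the allografts, those of day 5 read 421, 357 and 283 and those of day 8 read 362, 383 and 490. The grafts of day 14 read 659, 486 and 639 and those of day 100 read 205, 143 and 180. All 12 allografts lay above all 3 syngeneic grafts on this probe. On probe A_54_P2629, the mean spot intensity was 12.5, 14.0 and 25.5 in the syngeneic grafts, and between 29.9 and 161 in the allografts. The spots of a probe on 1 array varied with a CV between 1.78% and 28.5%, and the highest CV was that of probe A_54_P2629 in syngeneic replicate 2.

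**Figure D1:**
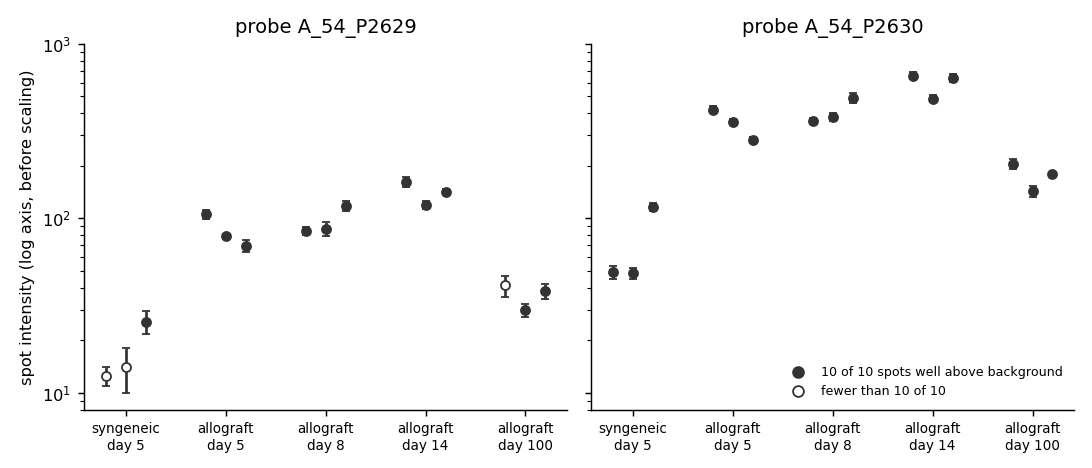
Mean spot intensity of miR-223 on each array before scaling, on a log axis, for both miR-223 probes (left and right). Points are arrays in the order of their replicate numbers and bars are the SD over up to 10 spots. Open points are arrays with fewer than 10 of 10 spots well above background, and the allografts of days 5, 8 and 14 are highest on both probes.

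The signal of miR-223, the sum of both probe means, was 61.6, 62.6 and 142 in the syngeneic grafts. In the allografts of day 5 it was 527, 436 and 352, and in those of day 8 it was 447, 471 and 607. At day 14 the signals reached 820, 605 and 781, and by day 100 they were 246, 173 and 218. The arrays also differed in brightness, with a 75th percentile between 395 and 1018 over the 52 miRNAs detected on every array. Each signal was therefore divided by the 75th percentile of its own array and put on the log2 scale, and a scaled level of 0 is a signal at that percentile.

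On the scaled log2 scale, miR-223 was at -3.06, -2.66 and -2.12 in the syngeneic grafts. Among the allografts it stood at -0.75, -1.12 and -0.38 (day 5), at -0.68, -0.72 and -0.45 (day 8), at -0.0032, -0.31 and -0.38 (day 14) and at -2.02, -1.58 and -1.83 (day 100). Thus the lowest allograft lay above the highest syngeneic graft, the allografts of day 100 lay below all other allografts, and the arrays of day 5 overlapped those of day 8 and day 14. The mean scaled level was -2.61 ± 0.47 in the syngeneic grafts, and for days 5, 8, 14 and 100 it was -0.75 ± 0.37, -0.62 ± 0.15, -0.23 ± 0.20 and -1.81 ± 0.22 (SD, n = 3). The spread between grafts exceeded the error of the spots, since the standard error that the spots gave to the log2 signal of an array lay between 0.0108 and 0.0394.

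**Figure D2:**
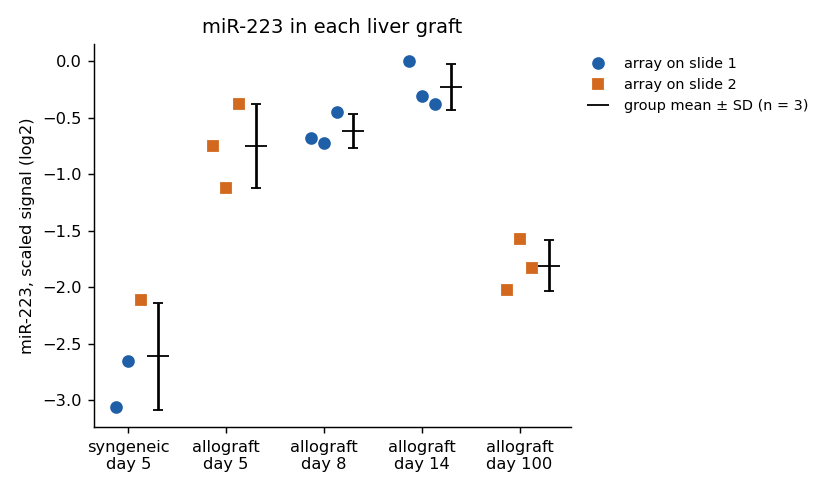
Scaled signal of miR-223 (log2) in each of the 15 liver grafts by group. Circles are arrays on slide 1, squares are arrays on slide 2, and bars are the group mean ± SD (n = 3). The 3 syngeneic grafts lie between -3.06 and -2.12, the allografts of day 100 between -2.02 and -1.58, and the other allografts between -1.12 and -0.0032.

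The comparison with the syngeneic grafts asks how far the level of miR-223 in an allograft differed from that in a graft without a strain difference. miR-223 was higher in the allografts on all 4 days. On day 5 it was 3.64-fold higher, a log2 fold change of 1.86 (SE 0.24, 95% confidence interval 1.34 to 2.39, limma, adjusted p = 0.000185). Of the 103 miRNAs tested, 25.2% were called at this day, 18.4% as higher and 6.8% as lower. On day 8 it was 3.98-fold higher, a log2 fold change of 1.99 (95% confidence interval 1.47 to 2.52, limma, adjusted p = 5.9e-05), and 40.8% of the miRNAs were called, 23.3% as higher and 17.5% as lower. On day 14 it was 5.21-fold higher, a log2 fold change of 2.38 (95% confidence interval 1.86 to 2.91, limma, adjusted p = 7.9e-06), and 45.6% were called, 27.2% as higher and 18.4% as lower. On day 100 it was 1.74-fold higher, a log2 fold change of 0.80 (95% confidence interval 0.28 to 1.33, limma, adjusted p = 0.0247), and 31.1% were called, 16.5% as higher and 14.6% as lower. Thus a call alone was common on every day. When the 103 miRNAs were ordered from the largest rise, its log2 fold change ranked 4, 4, 2 and 11 for days 5, 8, 14 and 100.

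miR-223 is among the miRNAs that the study itself picked from these arrays by their change from the syngeneic grafts, so these tests give the size and the error of the difference and are not independent evidence of its direction. In an exact two-sided permutation test of each comparison, p was 0.1, the smallest value that 3 against 3 arrays allow. The arrays did not overlap on any of the 4 days. That held, in either direction, for 30.1%, 51.5%, 54.4% and 29.1% of the tested miRNAs at days 5, 8, 14 and 100.

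The 3 syngeneic grafts were spread over both slides, and the array on slide 2 had the highest miR-223 of the 3, at -2.12 against -3.06 and -2.66. With slide as a block, the log2 fold change from the syngeneic grafts was 2.24 on day 8 (SE 0.23) and 2.63 on day 14 (SE 0.23, limma, adjusted p = 5.5e-06). It was 1.37 on day 5 (SE 0.29, limma, adjusted p = 0.019). On day 100 it was 0.31 (SE 0.29, limma, adjusted p = 0.611) and the call was lost. Within slide 1 alone, against syngeneic replicates 1 and 2, the values were 2.24 on day 8 and 2.63 on day 14. Each allograft group lay on 1 slide, so the fold changes within a slide equal those with the block and are no separate check. Within slide 2 alone, where 1 syngeneic array remained and was assumed to vary like the other groups, they were 1.37 on day 5 (limma, adjusted p = 0.114) and 0.31 on day 100 (limma, adjusted p = 0.67). Thus the rise on day 8 and day 14 was as large within the slide, and the rise on day 100 was not detectable there.

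Without replicate 1 of day 100, the array that stood apart, miR-223 on day 100 was higher than in the syngeneic grafts by 0.91 on the log2 scale (SE 0.27, limma, adjusted p = 0.0307). The call of day 100 was lost without syngeneic replicate 1 (0.58), syngeneic replicate 2 (0.78), day 100 replicate 2 (0.69) or day 100 replicate 3 (0.81), whereas those of days 5, 8 and 14 held with each array left out in turn.

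Next, the allograft days were compared with each other to ask when miR-223 was highest. A moderated F test over the 5 groups gave F = 32.5 (limma, adjusted p = 4.0e-05), and miR-223 ranked 3 of 103 by F in a test that called 64.1% of the miRNAs. The order of the group means was syngeneic, day 100, day 5, day 8 and day 14, from the lowest to the highest. Day 14 was 2.99-fold above day 100, a log2 fold change of 1.58 (SE 0.24, 95% confidence interval 1.05 to 2.10, limma, adjusted p = 0.00052), where 51.5% of the miRNAs were called. Day 8 was 2.28-fold above day 100, a log2 fold change of 1.19 (95% confidence interval 0.67 to 1.72, limma, adjusted p = 0.0052), where 19.4% were called. Day 5 was 2.09-fold above day 100, a log2 fold change of 1.06 (95% confidence interval 0.53 to 1.59, limma, adjusted p = 0.0090), where 29.1% were called. The arrays of day 100 overlapped with none of these groups, which was so for 46.6% of the miRNAs against day 5, 59.2% against day 8 and 65% against day 14. Day 5 and day 100 shared slide 2, so that comparison was made within 1 slide. Day 8 and day 14 were on the other slide than day 100, and these comparisons could be corrected for the slide only through the 3 syngeneic arrays. So corrected, day 8 lay above day 100 by 1.93 (limma, adjusted p = 0.0077) and day 14 by 2.32 (limma, adjusted p = 0.0015).

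Days 5, 8 and 14 were not told apart by the test. The difference of day 8 from day 5 was 0.13 (95% confidence interval -0.40 to 0.66, limma, adjusted p = 0.78), where 1.94% of the miRNAs were called. Day 14 differed from day 8 by 0.39 (95% confidence interval -0.14 to 0.91, limma, adjusted p = 0.43), where 5.83% were called. Day 14 differed from day 5 by 0.52 (95% confidence interval -0.0078 to 1.04, limma, adjusted p = 0.166), where 12.6% were called. The 3 arrays of day 14 all lay above the 3 arrays of day 8, on the same slide, which was so in either direction for 46.6% of the miRNAs. With slide as a block, the difference of day 8 from day 5 was 0.87 (limma, adjusted p = 0.153) and that of day 14 from day 5 was 1.26 (95% confidence interval 0.46 to 2.06, limma, adjusted p = 0.076), and neither was called.

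**Figure D3:**
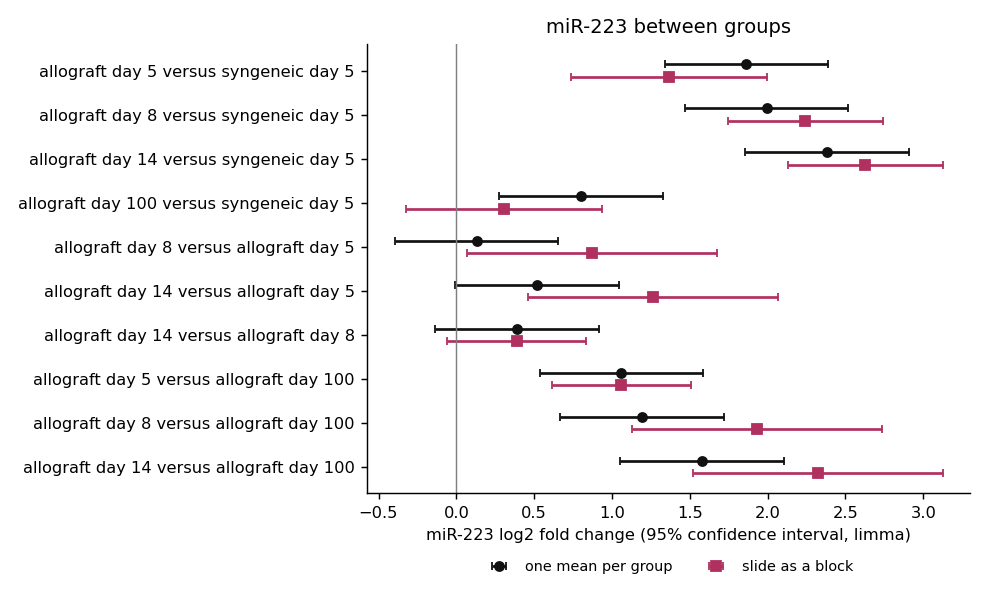
Log2 fold change of miR-223 in the 10 comparisons between groups, with 95% confidence intervals from limma. Circles are the fit with one mean per group and squares are the fit with slide as a block. With the block, the interval of day 100 against the syngeneic grafts holds 0 and those of day 5, day 8 and day 14 do not.

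miR-223 was then set beside other miRNAs of blood cells. miR-142-3p and miR-142-5p come from 1 hairpin that is expressed in nearly all blood cells, so they serve here as markers of leukocytes of any kind. Both were called higher on day 5 and on day 14 and neither passed the test on day 8 or day 100, but several of these calls depended on the fit. The scaled log2 level of miR-142-3p was -1.04, 0.54 and -0.35 in the syngeneic grafts and 1.14, 1.18 and 2.77 on day 5. The day 8 grafts had 0.35, 0.18 and 0.56, the day 14 grafts 1.05, 1.44 and 0.65, and the day 100 grafts -0.34, -0.0025 and -0.06. Day 5 replicate 3 was far above all other arrays in miR-142-3p, and syngeneic replicate 2 lay above 2 of the day 8 arrays. For days 5, 8, 14 and 100, the log2 fold change of miR-142-3p from the syngeneic grafts was 1.98, 0.65, 1.33 and 0.15 (SE 0.43). That of miR-142-5p was 1.89, 0.56, 1.98 and 0.04 (SE 0.46). miR-142-5p was detected on 2 of the 3 arrays in the syngeneic group and at day 100. It passed the filter only through the allografts of days 5, 8 and 14, so its rise there is a description of its level and no support. In syngeneic replicate 1 and day 100 replicate 1 it was at the floor (-5.21). With slide as a block, the changes of both at day 5 lay between 1.90 and 2.05 and neither passed the test, and without scaling between arrays both passed it on day 8. On day 14, miR-142-3p lost its call with the block (1.30, limma, adjusted p = 0.0527) and without syngeneic replicate 1 (0.95), syngeneic replicate 3 (1.30), day 14 replicate 1 (1.33) or day 14 replicate 2 (1.13). miR-142-5p lost its call on that day with normexp background correction (0.33, limma, adjusted p = 0.255). The summed scaled level of both ranged from 0.507 to 1.54 in the syngeneic grafts, then from 2.35 to 7.14 at day 5, from 1.20 to 1.55 at day 8, from 1.76 to 2.92 at day 14 and from 0.791 to 1.07 at day 100. The part of the number of leukocytes in the level of miR-223 was not tested.

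The difference of miR-223 and miR-142-3p within an array does not depend on the scaling of the array. Relative to its mean in the syngeneic grafts, this log2 difference was 0.30, -0.87 and 0.56 in the syngeneic grafts themselves and 0.43, 0.03 and -0.82 on day 5. The day 8 grafts were at 1.29, 1.42 and 1.32, the day 14 grafts at 1.28, 0.58 and 1.30, and the day 100 grafts at 0.64, 0.75 and 0.56. On day 8 and day 14 all arrays lay above the syngeneic arrays and on day 5 the arrays overlapped with them. The mean difference from the syngeneic grafts was -0.12, 1.34, 1.05 and 0.65 for days 5, 8, 14 and 100, with an exact permutation p of 0.8, 0.1, 0.1 and 0.2. Day 14 differed from day 100 by 0.40 (exact permutation p = 0.3). These 5 two-sided tests cannot go below p = 0.1 with 3 against 3 arrays, and after Benjamini-Hochberg adjustment over the 5 the lowest exact permutation p was 0.25. The highest array of the syngeneic group and the lowest of day 14 were 0.56 and 0.58, a gap far below the spread within either group. Arrays of these groups overlapped when probe A_54_P2630 alone (1.07, exact permutation p = 0.2) or the brightest probe of each miRNA (1.07, exact permutation p = 0.2) was used. After normexp background correction the mean difference was -0.80, 0.52 and 0.21 for days 5, 8 and 14, with an exact permutation p of 0.2, 0.1 and 0.5, and within slide 2 that of day 5 was -0.68. The difference of day 100 was 0.16 after that correction and 0.09 within slide 2. Without syngeneic replicate 2 the difference of day 14 was 0.62 (exact permutation p = 0.2).

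**Figure D4:**
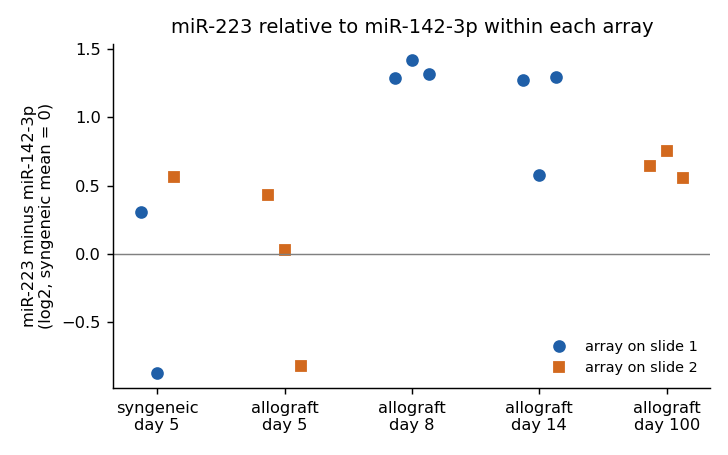
Log2 level of miR-223 minus that of miR-142-3p within each array, relative to the mean of the syngeneic grafts (0). Circles are arrays on slide 1 and squares are arrays on slide 2. The 3 arrays of day 8 lie between 1.29 and 1.42, and those of day 5 between -0.82 and 0.43.

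Of 5 miRNAs listed for lymphocytes, 2 were tested. These passed the filter only through allografts in which they were high, so that they rose there is a description of their levels and no support. miR-342-3p, which is abundant in lymphocytes, was detected on 1 of the 3 syngeneic arrays and was at -5.21, -5.21 and -4.75. It was at -3.10, -2.73 and -2.43 on day 5 and at -0.78, -1.27 and -0.99 on day 14. Its log2 fold change from the syngeneic grafts was 2.30, 3.34, 4.04 and 1.67 on days 5, 8, 14 and 100, all called, and it understates the change where syngeneic values were raised to the floor. miR-155, which is induced in activated lymphocytes and macrophages, was not well above background on any syngeneic array. It was at least 1.78-fold higher on day 5 (limma, adjusted p = 0.0076), at least 2.71-fold higher on day 8 (limma, adjusted p = 0.00029) and at least 3.02-fold higher on day 14 (limma, adjusted p = 7.9e-05). On day 100 it was detected on 1 of 3 arrays. Each bound sets the mean of the bright group against, for each dim array, the lowest signal among miRNAs detected on it. The p values belong to the log2 differences of 1.18, 1.79 and 1.95, taken with all 3 syngeneic values at the floor. These syngeneic values have no spread, so the p values do not measure it. With normexp background correction neither of the tested members passed the test on day 5 and 1 of 2 passed it on day 14. miR-150 and miR-181b were detected on no array, and miR-181a on 2 arrays of day 14. The summed scaled level of the list ranged from 0.0139 to 0.043 in the syngeneic grafts and from 0.553 to 0.774 on day 14.

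**Figure D5:**
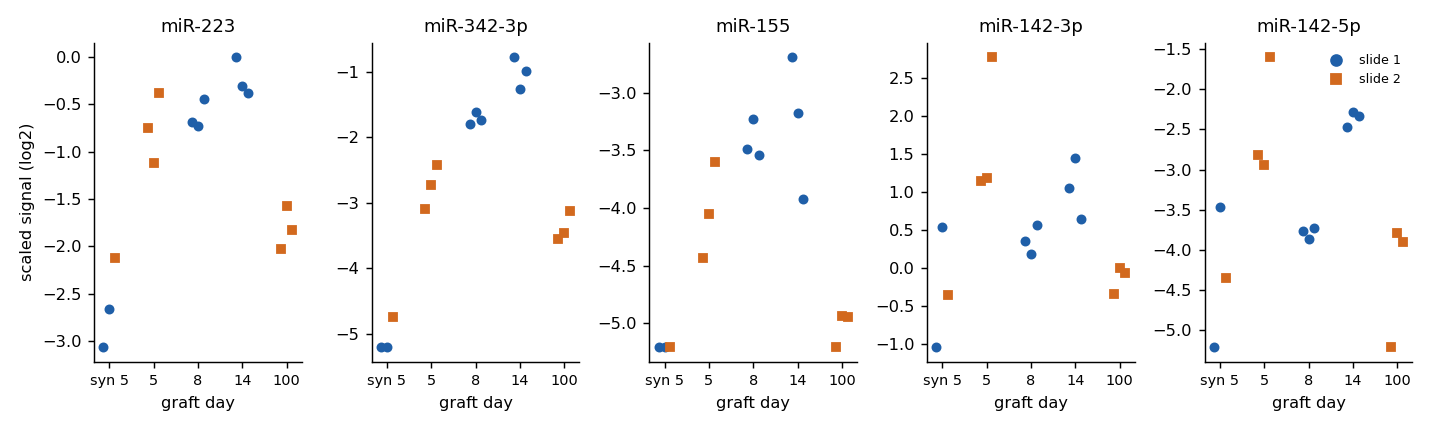
Scaled signal (log2) of miR-223, miR-342-3p, miR-155, miR-142-3p and miR-142-5p on each array, by graft day, with the syngeneic grafts (syn 5) first. Circles are arrays on slide 1 and squares are arrays on slide 2, the vertical axes differ between miRNAs, and values at -5.21 are at the floor. miR-223 and miR-342-3p lie lowest in the syngeneic grafts and highest on day 14, whereas miR-142-3p has its highest array on day 5.

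Of 10 miRNAs tied to myeloid differentiation, 6 were tested. On day 14 the list had 3 members that rose, 1 that fell and 2 that did not pass the test, where 27.2% of all tested miRNAs were called higher and 18.4% lower. With normexp background correction, 1 rose and 1 fell. Without that correction the median log2 fold change of the list was 0.62 against 0.07 over all tested miRNAs. The members that rose were miR-146a (1.49), which dampens signaling from Toll-like receptors, miR-27a (1.33), which is made with miR-23a and promotes granulocyte formation, and miR-34a (0.95), a target of p53. Not all 3 of these calls held in every setting. miR-34a did not rise with normexp background correction. With quantile normalization 3 members were called higher, miR-21 among them, so not all of these 3 were. miR-30c was lower by a log2 difference of -0.48, a call that was lost with slide as a block (-0.42), with the replicate block, with scaling to the median (-0.40) or to the percentile over all miRNAs (-0.56), and when p was adjusted over all comparisons together (limma, adjusted p = 0.060). It was also lost without syngeneic replicate 1 (-0.38), syngeneic replicate 3 (-0.42), day 14 replicate 1 (-0.40) or day 14 replicate 2 (-0.50). miR-21, which is induced in many inflamed tissues and is abundant outside leukocytes too, differed by 0.02 but was called with quantile normalization (0.86, limma, adjusted p = 0.0025). For miR-20a, a member of the miR-17 cluster that restrains monocyte maturation, the difference was 0.29, and it was called without scaling (1.07, limma, adjusted p = 0.017). The study picked miR-146a, miR-27a and miR-34a on these arrays as well, so their direction is not independent evidence. At day 5 and day 8 there were 3 and 2 that rose, where 18.4% and 23.3% of all tested miRNAs were called higher. At day 100 there were 3 that rose and 1, miR-21, that fell, where 16.5% were called higher and 14.6% lower. The block of the slide left 0 that rose at day 5, 3 at day 8 and 3 at day 14, and at day 100 it gave 0 that rose and 2 that fell. Scaling to the percentile over all miRNAs left 1, 2, 2 and 0 that rose for days 5, 8, 14 and 100. The summed level of this list, in which miR-21 dominates, ranged from 20.6 to 38.5 in the syngeneic grafts, from 24.7 to 33.1 on day 14 and from 16.7 to 18.5 on day 100. miR-17, miR-106a and miR-196b were detected on no array, and miR-146b on 2 arrays of day 14.

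The levels of markers of other cells were also set beside that of miR-223. The hepatocyte list was miR-122, the main miRNA of hepatocytes, with miR-192, miR-194 and miR-148a, and all 4 were detected on 15 of 15 arrays. All 4 fell on day 14, by 1.05, 0.97, 0.99 and 1.19 on the log2 scale in this order, where 18.4% of the tested miRNAs were called lower. There were 3 that fell at day 5, 4 at day 8 and 2 at day 100, where 6.8%, 17.5% and 14.6% were called lower. Without scaling between the arrays none of these 4 miRNAs passed the test on any day, and with quantile normalization miR-122 turned to 0.23 on day 14. Scaling to the percentile over all miRNAs left 0, 1, 4 and 0 that fell for days 5, 8, 14 and 100. Quantile normalization left 2, 2, 3 and 0 that fell, with 1 called higher on day 100. The summed scaled level ranged from 30.1 to 35.7 in the syngeneic grafts, then from 21.9 to 25.9 at day 5, from 22.9 to 24.7 at day 8, from 13.4 to 17.1 at day 14 and from 23.3 to 27.8 at day 100. Of the erythroid list, miR-451, which is made in red cell precursors and stays in red cells, rose by 0.99, 1.21 and 1.55 at days 5, 8 and 14. No member of this list was called higher at day 5 with slide as a block, normexp background correction, or scaling to the median or to the percentile over all miRNAs, and none at day 8 with the last of these. miR-144, from the same cluster, differed by 0.01 on day 14 and was not well above background on any array of day 8. On day 8 its log2 difference from the syngeneic grafts was -1.57 (SE 0.47), or 2.97-fold lower. This is the difference of the group means, so it is an estimate and no lower bound. It was called lower (limma, adjusted p = 0.018), where 17.5% of the tested miRNAs were called lower. With normexp background correction that call was lost. miR-486 was detected on 1 array. The study picked miR-451, and miR-148a of the hepatocyte list, on these arrays as well, so their direction is not independent evidence. The summed erythroid level ranged from 0.597 to 1.21 in the syngeneic grafts and from 1.82 to 2.48 on day 14. Of the endothelial and stromal list, miR-126-3p of endothelial cells (0.24 on day 14) and miR-214 of stellate cells and fibroblasts (0.32 on day 14) did not pass the test on any day. On day 14 miR-126-3p was called with slide as a block (0.34, limma, adjusted p = 0.028), with scaling to the median (0.33), without scaling (1.02) and without syngeneic replicate 3 (0.34), and 1 member was called on day 8 with the block or without scaling and on day 100 with scaling to the median. miR-145 of smooth muscle was detected on no array. miR-126-5p and miR-143 were detected on 4 and 5 arrays and were not tested, and miR-199a-3p was matched to no name on the array. The summed level of this list ranged from 0.834 to 1.04 in the syngeneic grafts and from 1.02 to 1.06 on day 14. The part of the cells of these lists in the change of miR-223 was not tested.

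Finally, the other 102 tested miRNAs were ordered by the Pearson correlation of their scaled log2 level with that of miR-223 over the 15 arrays. This is a description over arrays that share groups, slides and scaling. The median correlation was 0.19, and 5 miRNAs had a correlation over 0.9. They were miR-342-3p (0.94), miR-27a (0.93), let-7i (0.92), miR-25 (0.91) and miR-155 (0.90), and values at the floor entered for miR-342-3p on 2 arrays, for miR-25 on 1 and for miR-155 on 4. Over the 12 allografts alone the correlations were 0.86, 0.79, 0.87, 0.83 and 0.91, and the highest, 0.94, was that of another miRNA. Within slide 1 the correlations of the 5 were 0.99, 0.97, 0.97, 0.95 and 0.94, and within slide 2 they were 0.78, 0.82, 0.91, 0.78 and 0.93. That of miR-142-3p was 0.70 over the 15 arrays, 0.73 within slide 1 and 0.96 within slide 2. Thus the order depended on the arrays used. The mature sequences of these 5 miRNAs, with that of miR-142-3p for comparison, are shown because no seed recurs among them or matches that of miR-223.

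mmu-miR-342-3p: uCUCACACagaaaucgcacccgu

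mmu-miR-27a-3p: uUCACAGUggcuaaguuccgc

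mmu-let-7i-5p: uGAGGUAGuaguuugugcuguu

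mmu-miR-25-3p: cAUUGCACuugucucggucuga

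mmu-miR-155-5p: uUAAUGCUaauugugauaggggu

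mmu-miR-142a-3p: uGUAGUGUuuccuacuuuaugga

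Sequences are from RefSeq for GRCm38.p6 with the seed (bases 2 to 8) in capitals. The mature forms lie at chr12:108658680-108658702, chr8:84208727-84208747, chr10:122985698-122985719, chr5:138165332-138165353, chr16:84714143-84714165 and chr11:87756903-87756925 in the order shown, all apart from chromosome X, where Mir223 lies. let-7i belongs to the let-7 family, whose members repress growth genes, and 10 other mature miRNAs in the table carry its seed. Its scaled log2 level was -2.27, -2.41 and -1.74 in the syngeneic grafts, -1.25, -1.28 and -1.56 on day 14 and -1.95, -1.73 and -1.66 on day 100. Its log2 fold change from the syngeneic grafts was 0.77, 0.68 and 0.78 for days 5, 8 and 14, all called, and 0.36 for day 100 (limma, adjusted p = 0.126). miR-25, from the cluster it shares with miR-93, was detected on 1 of 3 syngeneic arrays and rose by 1.04, 1.20 and 1.16 at days 5, 8 and 14, which understates the change because 1 syngeneic value was raised to the floor. It passed the filter only through allografts in which it was high, so this rise is a description of its level. Of these 5 miRNAs, 1 passed the test between day 14 and day 5, miR-342-3p (1.74, limma, adjusted p = 0.00011), where the difference of miR-223 was 0.52. At the other end of the order were miR-148a (-0.79), miR-30a (-0.75) and miR-194 (-0.75), which lay highest in the syngeneic grafts. The scaled log2 level of miR-148a was 0.07, 0.26 and 0.68 in the syngeneic grafts and -1.01, -0.57 and -0.97 on day 14, and it was 0.08, 0.01 and -0.04 on day 100.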

How the data were processed

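RNA of 15 liver grafts was hybridized to Agilent mouse miRNA arrays, 100 ng of Cy3-labeled total RNA per array. The authors deposited spot intensities from Feature Extraction, whose version per the file headers was 9.5.1.1, background-subtracted and not normalized between arrays. A log2 table of the series was not used here. The number of grafts limits the precision.

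A signal was the sum over probes of the mean intensity of spots that were not outliers. Detection required a share of at least 0.5 of a probe's spots to be well above background. For scaling, signals were divided by the 75th percentile of the 52 miRNAs that all 15 arrays detected. Scaled signals below 0.0270 were set to it (log2 value -5.21), and log2 values were tested. Of the mouse miRNAs, the 103 that were detected in every array of some group were fitted with limma (version 3.58.1, R 4.3.3), with Benjamini-Hochberg adjustment within each comparison and a threshold of 0.05. The limma step was tested on simulated arrays with known changes. Levels within an array were compared by exact permutation tests, also in R.

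The text names miR-223, all members of the 6 marker lists, and the 5 miRNAs most and 3 least correlated with miR-223. The members, lists and tests were chosen with earlier results of these data known. Alternatives covered scaling, probe summary, background correction, floor, filter, test, adjustment, replicate and slide as blocks, and leaving out each array. Sequences were matched by name to the RefSeq table (GRCm38.p6, 1679 mature miRNAs).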

Additional observations from a re-analysis of the deposited data

Results flagged for a closer look

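The difference of miR-223 from the same 3 syngeneic grafts was not of one size over the days, and the difference between days was itself past the threshold in 3 comparisons. Against day 100, the log2 fold change of miR-223 from the syngeneic grafts was larger by 1.06 on day 5 (limma, adjusted p = 0.0090), by 1.19 on day 8 (limma, adjusted p = 0.0052) and by 1.58 on day 14 (limma, adjusted p = 0.00052). The syngeneic grafts cancel in these differences, so they are the same values as the comparisons between the allograft days. Every one of the 3 arrays of day 100 lay below every array of the other allograft days. In either direction, 46.6%, 59.2% and 65% of the tested miRNAs did not overlap between day 100 and days 5, 8 and 14. In these 3 comparisons, 29.1%, 19.4% and 51.5% of the tested miRNAs were called.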

How the results depend on the processing

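miR-223 was higher in the allografts under every alternative run, and on day 8 and day 14 always past the threshold, with a log2 fold change between 1.08 and 2.62 on day 8 and between 1.38 and 3.16 on day 14. The lowest of these came with normexp background correction and the highest without scaling, where the median of all tested miRNAs moved to 0.68 on day 8 and 0.71 on day 14, and normexp moved it to -0.23 and -0.36. The rise on day 100 lost its call with quantile normalization (0.71), probe A_54_P2629 alone (0.52), normexp (0.26), no filter on undetected miRNAs (0.80, limma, adjusted p = 0.206), only both groups in the fit (0.80), the methods' t-test with or without adjustment (0.80), slide as a block (0.31) and within slide 2 (0.31). With arrays left out it was between 0.58 and 1.05, and the call was lost without syngeneic replicate 1 (0.58), syngeneic replicate 2 (0.78), day 100 replicate 2 (0.69) or day 100 replicate 3 (0.81). The rise on day 5 lost its call with only both groups in the fit (1.86, limma, adjusted p = 0.0502), the methods' t-test after adjustment (1.86) and within slide 2 (1.37). Against day 100, the call of day 5 was lost with no filter (1.06) and the adjusted t-test of the methods (1.06), and that of day 8 with no filter (1.19). The difference of day 8 from day 5, which was not called, turned to -0.028 with median scaling and lay between -0.056 and 0.32 with arrays left out, below 0 without day 5 replicate 2. With arrays left out, miR-223 minus miR-142-3p on day 5 lay between -0.55 and 0.23, above 0 without syngeneic replicate 1 (0.03), syngeneic replicate 3 (0.16) or day 5 replicate 3 (0.23). Spots recentred on each array's median, tried after seeing the data, gave 0.84 on day 100. The cause of these changes was not tested.

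Replicate numbers did not pair the arrays, since the deviations of 30 same-numbered pairs correlated between -0.65 and 0.45. With the replicate block, miR-223 differed by 1.86, 1.99, 2.38 and 0.80 on days 5, 8, 14 and 100 (limma, adjusted p between 2.2e-05 and 0.026), no call of miR-223 changed, and the 6 calls of day 14 against day 8 fell to 0, with 20 at an unadjusted p under 0.05 by limma.

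Other differences of day 14 from the syngeneic grafts changed sign. That of miR-21 was -0.051 with the percentile over all miRNAs, -0.066 with the brightest probe, -0.063 with the total signal of the software and between -0.21 and 0.26 with arrays left out. That of miR-144 was -0.063, -0.032 and -0.075 in the same order, -0.29 with quantile normalization, -0.33 with normexp, -0.0035 with recentred spots, -0.28 with slide as a block or within slide 1, and between -0.28 and 0.33 with arrays left out. Under normexp, miR-34a was at -0.016, miR-20a at -0.20 and miR-214 at -0.44. Under quantile normalization, miR-20a was at -0.091 and miR-122 at 0.23, and without scaling miR-30c was at 0.29. Against the syngeneic grafts, the number of miRNAs called went from 26, 42, 47 and 32 on the 4 days to 1 to 28, 20 to 46, 21 to 56 and 1 to 44. For day 8 and day 14 against day 5 and day 14 against day 8 it moved from 2, 13 and 6 to 0 to 36, 0 to 28 and 0 to 34, with 23, 30 and 22 at an unadjusted p under 0.05 by limma. For days 5, 8 and 14 against day 100 it moved from 30, 20 and 53 to 5 to 38, 1 to 45 and 20 to 58. The upper ends 36, 28, 34, 38 and 45 came from the methods' t-test without adjustment. They count an unadjusted p under 0.05 and are not calls by adjusted p. Days 8 and 14 could not be compared with days 5 and 100 within a slide. Low signals of probe A_54_P2629 limit the level in the syngeneic grafts.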
